A study of Mus musculus with 6 samples.

Results

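The 44 genes described here encode integrins, focal adhesion adaptors and the proteins that assemble and crosslink actin filaments. They were chosen by gene symbol, from 55364 genes listed, and fall into 14 integrin subunits, 13 adaptors, 8 subunits of the Arp2/3 complex, 6 actin crosslinkers and PDZ-LIM proteins, and a last group of 3 with both cytoplasmic actins and a formin. Their RNA was measured in primary mouse lung fibroblasts (LFs), in 3 libraries of wt LFs and 3 labelled as a knockout of TKS5, a genotype the paper names Tks5+/-. The heterozygous mice carry an allele of Sh3pxd2a, the gene of Tks5, from which 1 exon was removed by a Cre recombinase active in every tissue, and wt and Tks5+/- mice were adult littermates. Both groups were kept without serum and with 10 ng/ml TGF-β1 for 24 h, so no library shows these genes without TGFβ. The paper calls its samples biologically independent, but neither it nor the labels say from which mice each library came, and p-values measure the spread between these libraries.

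Integrins are receptors of an alpha and a beta subunit that span the plasma membrane and bind matrix proteins outside the cell. On the inside, talin and kindlin bind the beta subunit and switch the receptor to its active state, and vinculin, tensins and the Ilk, Pinch and parvin complex tie it to actin filaments. The Arp2/3 complex starts new filaments as branches on existing ones, formins lengthen unbranched filaments, and alpha-actinins and filamins crosslink them. Fibroblasts use these structures to pull on collagen and fibronectin, and in myofibroblasts, the contractile cells that TGFβ induces, focal adhesions grow large.

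Reads in Quant-Seq come from the end of each transcript, and the libraries held 1344507 to 2369882 counts. Sh3pxd2a had 205, 190 and 284 counts in wt replicates 1, 2 and 3 against 238, 258 and 260 in libraries labelled Tks5+/-. Its log2 fold change was 0.29 (standard error, SE, 0.20, adjusted p = 0.249), so the targeted gene was not called lower in those libraries, although reads from the end of the transcript do not cover the removed exon. Scaled by library totals it was -0.13, and with the correction for transcript length described below it was called higher (1.01, adjusted p = 4.93e-04). Ddx3y, a gene of the Y chromosome, had 146, 159 and 210 counts in wt LFs against 25, 19 and 21 in libraries labelled Tks5+/-. Eif2s3y, also on the Y chromosome, had 14, 13 and 35 against 26, 7 and 13 and was not called (-0.23, adjusted p = 0.688), and Kdm5d and Uty were too low to test. Nnt, whose reads are shared by a pair of gene entries, had 47, 89 and 107 against 36, 18 and 19. No library had a count of Xist. The part that these differences between the libraries play in the results below was not tested.

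Of 13 macrophage markers, 4 were called lower, and their summed CPM (counts scaled to the size of the library) was 320.5 to 1997 in wt LFs, with 1997 in wt replicate 3, and 139.9 to 150.5 in libraries labelled Tks5+/-. Lyz2, the most abundant of them, had 298, 337 and 3502 counts in wt LFs against 139, 157 and 207 in the others. Of 8 endothelial markers, 4 were called lower (114.5 to 145.7 CPM against 45.6 to 60.4), and of 5 mesothelial markers 1 was (20.9 to 25.1 against 3.58 to 12.1). The summed levels of 9 epithelial markers overlapped, with Ager called higher (1.82) and Cldn4 lower. Cdh1, not tested, had 17, 8 and 58 counts in wt LFs and 0 in every library labelled Tks5+/-, and Sftpc, Sftpb and Scgb1a1 were at 0 in every library. The 7 smooth muscle and pericyte markers added up to 797.8 to 837.2 CPM in wt LFs and 1781 to 3242 in the others, but 4 were called lower (Myh11, Des, Cspg4 and Notch3) and only Tagln and Cnn1, which make up most of the sum, higher. The 12 fibroblast markers added up to 14170 to 15920 CPM in wt LFs and 17520 to 19770 in the others, led by S100a4, which was not called. Of the 12, 4 were called higher (Thy1, Vim, Col3a1 and Pdgfra) and 2 lower (Fn1, -1.55, and Pdgfrb, -0.996). The cells of both groups therefore carried fibroblast RNA in every library, and RNA of other cells was not at the same level in the groups. Fewer cells of a type and less RNA per cell cannot be told apart in such libraries, and the part of these markers in the results was not tested.

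A gene was called when its adjusted p in edgeR's quasi-likelihood test, over all 10346 genes tested, was below 0.05 and it changed by at least 1.2-fold. All fold changes are those of the libraries labelled Tks5+/- against wt LFs, on the log2 scale, and CPM are scaled by the TMM method. Of the 44 genes, 38 passed the filter on low counts, and of these 12 were called lower and 3 higher while 23 were not called. Over all genes tested, 22.1% were called lower and 22.8% higher. The levels of the 3 libraries labelled Tks5+/- lay below all those of wt LFs for 12 of the 38 genes and above them for 8, against 27.6% and 26.1% of all genes. The median log2 fold change of the 38 was -0.24, beside -0.046 for all genes tested. Without wt replicate 3, which had the most macrophage RNA and also the most counts (2369882), 9 genes were called lower and 3 higher. Over all genes that fit called 1924 lower and 2162 higher. The calls were split by role: every gene called lower was an integrin, an adaptor or a filamin, and the 3 called higher were subunits of the Arp2/3 complex. Role and transcript length are not independent in this set, as described below.

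**Figure D1:**
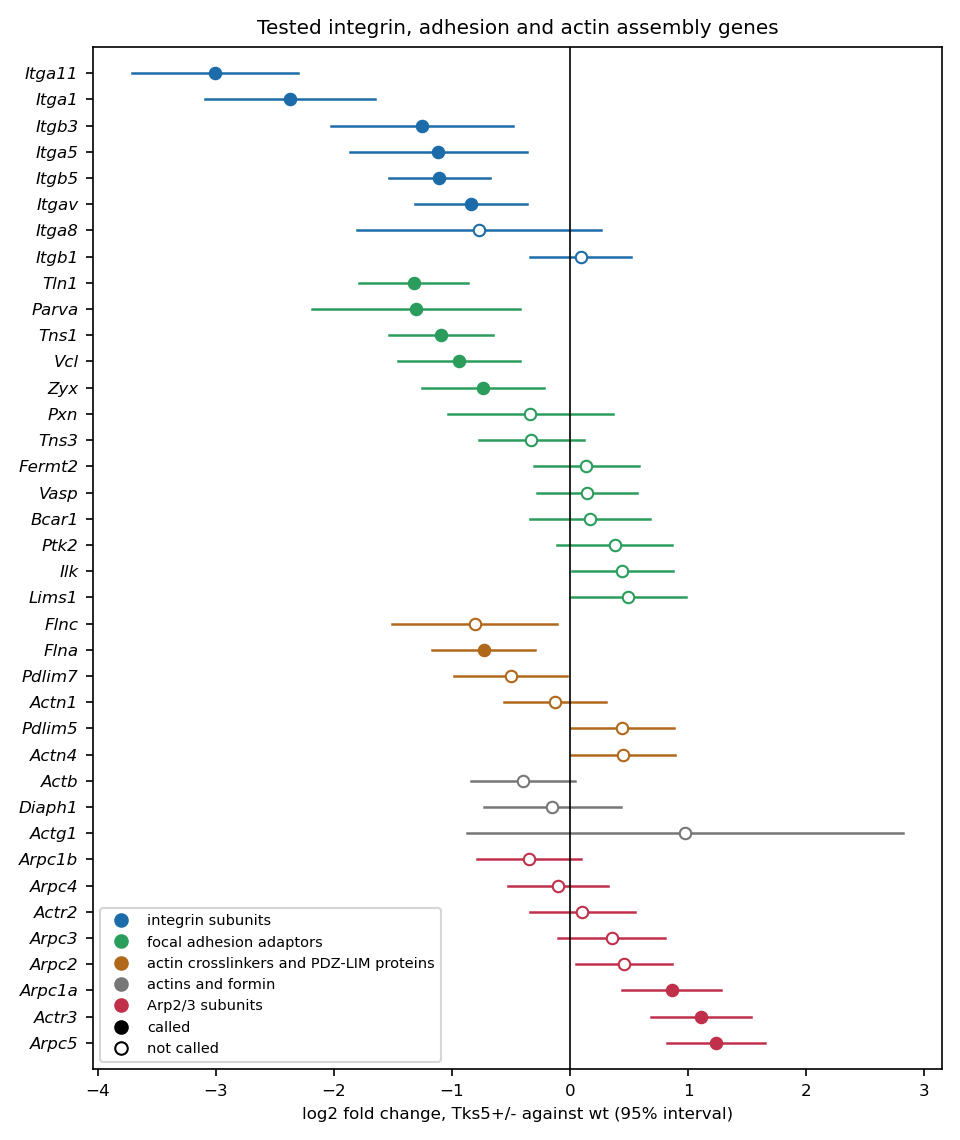
Log2 fold change (x axis) of each of the 38 tested genes, Tks5+/- against wt, with its 95% interval as a line and filled points for called genes. Points of the integrin subunits lie from -3.01 to 0.09 and those of the Arp2/3 subunits from -0.35 to 1.24.

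Integrin subunits stood lowest. Of the 14, 8 were tested, 6 were called lower (75%, beside 22.1% of all genes tested) and 0 higher, with a median log2 fold change of -1.11. Itga11 encodes the alpha subunit of a collagen receptor of fibroblasts, which pairs with beta1 (ENSMUSG00000032243, chromosome 9 of GRCm38, 62677826 to 62783982). In wt replicates 1, 2 and 3 it had 65, 119 and 98 counts, against 12, 5 and 15 in libraries labelled Tks5+/-. Its expression fell from 47.3 ± 14.5 CPM (SD of n = 3) to 5.73 ± 2.49 (SD of n = 3), a log2 fold change of -3.01 (SE 0.34, adjusted p = 4.57e-07), which is 8.05-fold. No library labelled Tks5+/- came near the wt range. Itga1, another alpha subunit that pairs with beta1 and binds collagen (ENSMUSG00000042284, chromosome 13, 114953096 to 115101964), had 67, 110 and 66 counts in wt LFs against 20, 10 and 14 in the others. It fell from 42.2 ± 17.2 CPM (SD of n = 3) to 7.997 ± 2.66 (SD of n = 3), a log2 fold change of -2.37 (SE 0.35, adjusted p = 1.11e-05), and its groups did not overlap. Their partner Itgb1 (chromosome 8, 128685654 to 128733200), the beta subunit of most fibroblast integrins, had 746, 719 and 1097 counts in wt LFs against 767, 649 and 1076 in libraries labelled Tks5+/-. Its log2 fold change was 0.09, with a 95% interval from -0.34 to 0.52 (SE 0.21, adjusted p = 0.753), and its groups overlapped. The sign of Itgb1 turned with library totals as the scaling (-0.33) and on the authors' normalized counts (-0.39), without a call.

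The RNA of these 2 collagen-binding alpha subunits was thus lower in these libraries, while that of beta1 was not called. Within a library, where the scaling cancels, Itga11 had 8.71, 16.6 and 8.93 counts per 100 counts of Itgb1 in wt replicates 1, 2 and 3 and 1.56, 0.770 and 1.39 in libraries labelled Tks5+/-. For Itga1 the values were 8.98, 15.3 and 6.02 against 2.61, 1.54 and 1.30. Each of these ratios, chosen after the values were seen, lay apart between the groups (p = 0.1 in an exact two-sided permutation test, the smallest that 3 libraries against 3 allow). Itga11 (4969 nt) and Itga1 (10967 nt) have longer transcripts than Itgb1 (3815 nt), and the trend with length described below does not cancel within a library.

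Itgav and the beta subunits Itgb5 and Itgb3 were called lower as well. Integrins of alphav bind vitronectin and fibronectin and can release TGFβ from its latent complex. Itgav (chromosome 2, 83724397 to 83806916) had 105, 95 and 145 counts in wt LFs against 65, 52 and 58 in libraries labelled Tks5+/-. Expression went from 57.4 ± 8.94 CPM (SD of n = 3) to 31.9 ± 3.26 (SD of n = 3), a log2 fold change of -0.84 (SE 0.23, adjusted p = 0.00482). The 3 libraries of each group lay apart. Itgb5 (ENSMUSG00000022817, chromosome 16, 33829665 to 33949338), a beta subunit that pairs with alphav alone, had 309, 379 and 488 counts in wt LFs against 195, 133 and 167 in the others. Its expression fell from 194 ± 11.7 CPM (SD of n = 3) to 90.1 ± 15.1 (SD of n = 3), with a log2 fold change of -1.11 (SE 0.21, adjusted p = 1.56e-04). Itgb3, another partner of alphav, had 16, 33 and 56 counts in wt LFs against 12, 9 and 17, with a log2 fold change of -1.26 (adjusted p = 0.00864). Counts of Itgb5 per 100 of Itgav overlapped, with 343 ± 52.7 (SD of n = 3) in wt LFs and 281 ± 22.9 (SD of n = 3) in the others. The exact two-sided permutation test gave p = 0.2 and cannot show that the ratio stayed the same. Itgb5 (3282 nt) has a shorter transcript than Itgav (7054 nt), and the trend with length described below does not cancel within a library. With the length correction, Itgb5 stayed called lower (-1.06), while Itgav (-0.34, adjusted p = 0.241) and Itgb3 (-0.86, adjusted p = 0.0709) did not.

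Itga5, the alpha subunit of the fibronectin receptor, had a log2 fold change of -1.12 (adjusted p = 0.0153). It rests on few reads, 23, 26 and 62 counts against 9, 18 and 17. Without wt replicate 3, neither Itga5 nor Itgb3 was called, and Itga5 was also not called without Tks5+/- replicate 1. That wt library had the most macrophage RNA and also the most counts, and why the calls were lost was not tested. Itga8, at -0.77, was not called (adjusted p = 0.216) and had at most 19 counts in any library. The other 6 subunits were too low to test. Itga2, an alpha subunit of collagen receptors, had 2 to 15 counts per library, Itga3 had 0 to 8, and Itga4, Itga6 and Itgb8 had at most 3. Itga7, the alpha subunit of a laminin receptor of muscle, had 4, 9 and 7 counts in wt LFs but 1617, 0 and 7 in libraries labelled Tks5+/-, so that nearly all of its reads lay in 1 library.

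**Figure D2:**
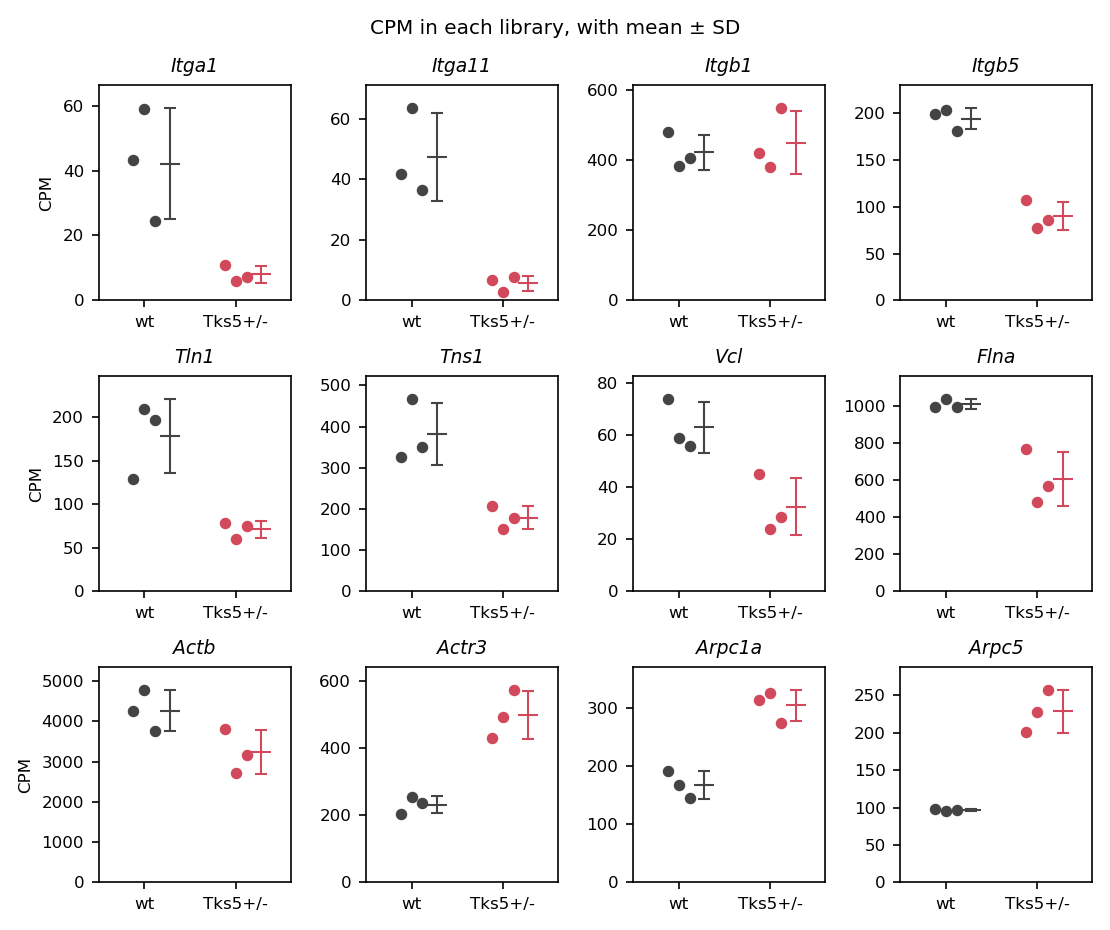
CPM (y axis, from 0) of 12 of the genes in each library as points, wt and Tks5+/- replicates 1, 2 and 3 from left to right, beside the mean with its SD. Itga11, Itga1, Itgb5, Tln1, Tns1, Vcl and Flna lie lower in all libraries labelled Tks5+/-, Actr3, Arpc1a and Arpc5 lie higher, and Itgb1 and Actb overlap.

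Among the 13 focal adhesion adaptors, all tested, 5 were called lower (38.5%, beside 22.1% of all genes tested) and 0 higher, with a median of -0.33. Talin, which joins integrins to actin, led them. Tln1 (chromosome 4, 43531519 to 43562691) had 201, 390 and 530 counts in wt LFs against 143, 102 and 147 in libraries labelled Tks5+/-. Its expression went from 178 ± 42.7 CPM (SD of n = 3) to 71.1 ± 10.0 (SD of n = 3), a log2 fold change of -1.33 (SE 0.22, adjusted p = 5.46e-05). Tensin 1, a protein of the fibrillar adhesions in which fibroblasts assemble fibronectin, also fell. Tns1 (chromosome 1, 73910231 to 74124449) had 508, 874 and 943 counts against 377, 258 and 346, or 381 ± 75.6 CPM (SD of n = 3) against 178 ± 27.98 (SD of n = 3), with a log2 fold change of -1.10 (SE 0.21, adjusted p = 2.40e-04). For neither gene did the CPM of the groups overlap.

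Vinculin, which binds talin under tension, had 115, 110 and 151 counts in wt LFs against 82, 41 and 56 in libraries labelled Tks5+/- (Vcl, ENSMUSG00000021823, chromosome 14, 20929398 to 21033676). It fell from 63.0 ± 9.69 CPM (SD of n = 3) to 32.5 ± 11.0 (SD of n = 3), a log2 fold change of -0.94 (SE 0.25, adjusted p = 0.00382). The LIM protein zyxin, which gathers at stretched filaments, had 332, 462 and 563 counts against 302, 125 and 316 (Zyx, chromosome 6, 42349630 to 42360213), or 223 ± 20.9 CPM (SD of n = 3) against 134 ± 52.3 (SD of n = 3). Its log2 fold change was -0.74 (SE 0.25, adjusted p = 0.0195), and the call was lost without wt replicate 2 or without Tks5+/- replicate 2. The reads of Vcl and Zyx are uncertain: their ends overlap Ap3m1 and Epha1 on the opposite strand. Ap3m1 was listed with 132% to 171% of the counts of Vcl, and Epha1 with 84.1% to 89.6% of those of Zyx. Both were themselves called lower, Ap3m1 at -0.79 (adjusted p = 0.00772) and Epha1 at -0.76 (adjusted p = 0.0189).

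Parva was the last adaptor called lower, and neither Ilk nor Lims1, the other adaptors described here from its complex, was called. Parva, the actin-binding parvin of that complex, had 460, 1390 and 1796 counts in wt LFs against 542, 217 and 518 in the others, so its groups overlapped, with a log2 fold change of -1.31 (adjusted p = 0.0217). The call was lost without wt replicate 3 or Tks5+/- replicate 3. Ilk (0.44, adjusted p = 0.0841) and Lims1, which encodes Pinch (0.49, adjusted p = 0.0930), were not called, and lay higher in all libraries labelled Tks5+/-. With library totals as the scaling, Ilk was at 0.03 and Lims1 at 0.07. The end of Ilk overlaps Taf10 on the opposite strand, listed with 130% to 139% of the counts of Ilk. Taf10 was itself called higher (0.51, adjusted p = 0.0492), so the reads of Ilk are uncertain.

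The signalling adaptors of the adhesion were not called. Ptk2, which encodes focal adhesion kinase (chromosome 15, 73205102 to 73423280), had 53, 66 and 91 counts in wt LFs against 83, 60 and 104 in libraries labelled Tks5+/-. This was 34.4 ± 0.824 CPM (SD of n = 3) and 44.6 ± 9.09 (SD of n = 3), a log2 fold change of 0.38 (SE 0.24, adjusted p = 0.198, 95% interval -0.11 to 0.87). Paxillin, its docking partner, had 33, 19 and 47 counts against 21, 27 and 22 (Pxn, chromosome 5, 115506676 to 115555987), or 16.3 ± 5.62 CPM (SD of n = 3) against 12.9 ± 2.55 (SD of n = 3). The log2 fold change of Pxn was -0.34 (SE 0.34, adjusted p = 0.432, 95% interval -1.03 to 0.36). Both pairs of groups overlapped, and the interval of Pxn, read from few counts, is wide enough for a change of either sign. Bcar1, the kinase's scaffold substrate (0.17), Vasp, an elongator of filaments (0.14), Fermt2, the kindlin of fibroblasts (0.14), and Tns3 (-0.33) had adjusted p of 0.219 to 0.635.

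In the Arp2/3 complex, 3 of 8 subunits were called higher (37.5%, beside 22.8% of all genes tested) and 0 lower, with a median of 0.40. In the bins of transcript length that hold these subunits, described below, 15.0% to 56.1% of all genes were called higher, a range that includes 37.5%. Arpc5 (ENSMUSG00000008475, chromosome 1, 152766542 to 152775597) had 153, 179 and 261 counts in wt LFs against 365, 390 and 503 in libraries labelled Tks5+/-. It rose from 97.0 ± 1.36 CPM (SD of n = 3) to 229 ± 28.6 (SD of n = 3), a log2 fold change of 1.24 (SE 0.20, adjusted p = 3.60e-05). Actr3, the Arp3 subunit that forms the start of the branch together with Arp2, had 316, 476 and 637 counts against 785, 842 and 1122 (ENSMUSG00000026341, chromosome 1, 125392905 to 125435727). Its expression rose from 231 ± 25.99 CPM (SD of n = 3) to 499 ± 71.9 (SD of n = 3), with a log2 fold change of 1.11 (SE 0.20, adjusted p = 1.43e-04). The groups of both genes lay well apart. Arpc1a (chromosome 5, 145083830 to 145108761) had 299, 314 and 390 counts in wt LFs against 573, 557 and 537 in the others. Expression went from 168 ± 23.9 CPM (SD of n = 3) to 305 ± 26.8 (SD of n = 3), a log2 fold change of 0.86 (SE 0.20, adjusted p = 0.00147). With library totals as the scaling, under which the median of all genes shifted to -0.465, Arpc1a was 0.44 and not called (adjusted p = 0.0734).

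The other subunits did not pass the test. Arpc2, a core subunit that binds the mother filament (chromosome 1, 74236084 to 74268209), had 576, 704 and 860 counts in wt LFs against 913, 771 and 995 in libraries labelled Tks5+/-. It was 355 ± 31.8 CPM (SD of n = 3) and 487 ± 31.4 (SD of n = 3), a log2 fold change of 0.46 (SE 0.20, adjusted p = 0.0631). Arpc3 (0.35), Actr2, which encodes Arp2 (0.10), Arpc4 (-0.10) and Arpc1b (-0.35) had adjusted p of 0.186 to 0.723. The end of Arpc1b overlaps Pdap1, listed with 10.3% to 20.4% of its counts. Signs of the uncalled subunits depend on the scaling, as Arpc3 and Actr2 were below 0 with library totals and Arpc4 and Arpc1b were then called lower.

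Ratios within a library were also formed between subunits called higher and others of the complex. Arpc1a and Arpc1b encode alternative forms of the same subunit, and the complex needs either. Counts of Arpc1a per 100 of Arpc1b were 41.5, 23.6 and 20.7 in wt replicates 1, 2 and 3 and 71.2, 64.2 and 52.8 in libraries labelled Tks5+/-. For Actr3 per 100 of Actr2 they were 439, 553 and 490 against 835, 1079 and 1069, and for Arpc5 per 100 of Arpc4 they were 30.3, 21.5 and 25.7 against 54.6, 73.4 and 66.1. The groups lay apart for all 3 ratios (p = 0.1 in the exact two-sided permutation test), which were chosen after the values were seen, and a ratio shows unequal change, not which subunit changed. In each ratio the numerator has the shorter transcript, and a trend with length does not cancel within a library. The mean log2 (CPM + 1) over the 8 subunits was 7.37 to 7.59 in wt LFs and 7.90 to 8.02 in the others, that of the 8 tested integrins 5.49 to 5.56 and 4.16 to 4.42, and that of the adaptors 6.53 to 6.56 and 6.05 to 6.34.

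Of the 6 actin crosslinkers and PDZ-LIM proteins, Flna was called lower. Filamin A crosslinks filaments into networks and binds integrin tails (chromosome X, 74223461 to 74249820). Its counts were 1543, 1940 and 2676 in wt LFs and 1395, 827 and 1114 in the others, or 1008 ± 26.2 CPM (SD of n = 3) against 607 ± 144 (SD of n = 3), with a log2 fold change of -0.73 (SE 0.21, adjusted p = 0.00711). Flnc, the filamin of muscle (chromosome 6, 29433256 to 29461883), had 35, 27 and 61 counts against 29, 19 and 14, or 19.9 ± 4.69 CPM (SD of n = 3) against 11.4 ± 4.38 (SD of n = 3), and was not called at -0.81 (SE 0.34, adjusted p = 0.0561). Pdlim7, a PDZ-LIM protein of stress fibres (chromosome 13, 55495795 to 55513676), had 214, 328 and 343 counts against 244, 120 and 207, or 147 ± 25.4 CPM (SD of n = 3) against 103 ± 31.9 (SD of n = 3), and was not called at -0.50 (SE 0.23, adjusted p = 0.0811). Flnc and Pdlim7 overlapped between the groups.

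The alpha-actinins and Pdlim5 were not called. Actn4 (chromosome 7, 28893248 to 28962340) was listed with 289, 440 and 531 counts in wt LFs against 628, 369 and 550 in libraries labelled Tks5+/-. This came to 206 ± 25.98 CPM (SD of n = 3) and 281 ± 64.4 (SD of n = 3), a log2 fold change of 0.45 (SE 0.21, adjusted p = 0.0924), but Capn12, which it overlaps on the opposite strand, was listed with 99.6% to 100% of the same counts. Reads of the pair cannot be told apart. Actn1 was at -0.13 (adjusted p = 0.645) and Pdlim5 at 0.44 (adjusted p = 0.0932).

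Neither cytoplasmic actin was called. Actb (chromosome 5, 142903115 to 142906754) had 6603, 8940 and 10127 counts in wt LFs against 6935, 4649 and 6192 in libraries labelled Tks5+/-. Its expression was 4263 ± 515 CPM (SD of n = 3) and 3232 ± 545 (SD of n = 3), with overlapping groups and a log2 fold change of -0.40 (SE 0.21, adjusted p = 0.129). It was called lower with library totals (-0.81), on the authors' normalized counts (-0.89) and with the length correction described below (-0.62). Actg1 (chromosome 11, 120345690 to 120348542) varied most within the groups, with 156, 460 and 165 counts against 800, 298 and 361, or 136 ± 97.5 CPM (SD of n = 3) against 266 ± 150 (SD of n = 3). Its log2 fold change of 0.97 had a SE of 0.70 (adjusted p = 0.325). The formin Diaph1 had 26, 47 and 67 counts against 43, 30 and 38, or 22.2 ± 4.77 CPM (SD of n = 3) against 20.2 ± 3.09 (SD of n = 3), and a log2 fold change of -0.15 (SE 0.28, adjusted p = 0.688). Reads of closely similar actin genes may be shared among them, which makes the counts of Actb and Actg1 uncertain.

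Transcript length moved with these results. Over the 10339 tested genes with a known length, the log2 fold change declined as the longest transcript grew longer (Spearman's rho = -0.397), and over the 38 genes of adhesion and actin assembly rho was -0.660, given as a description, since the points share their 6 libraries. In the shortest of 10 equal bins of transcript length the median log2 fold change was 0.85 and 56.1% were called higher, and in the longest it was -0.63 and 43.0% were called lower. The 12 genes called lower have transcripts of 3188 to 10967 nt (median 5826.5 nt), the 3 called higher of 1685 to 2565 nt (median 1914 nt), and the 23 not called of 899 to 9038 nt (median 3631 nt). The Arp2/3 subunits are encoded by transcripts of 899 to 3631 nt and the tested integrins by ones of 3282 to 10967 nt, so that role and length are not independent in this set.

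**Figure D3:**
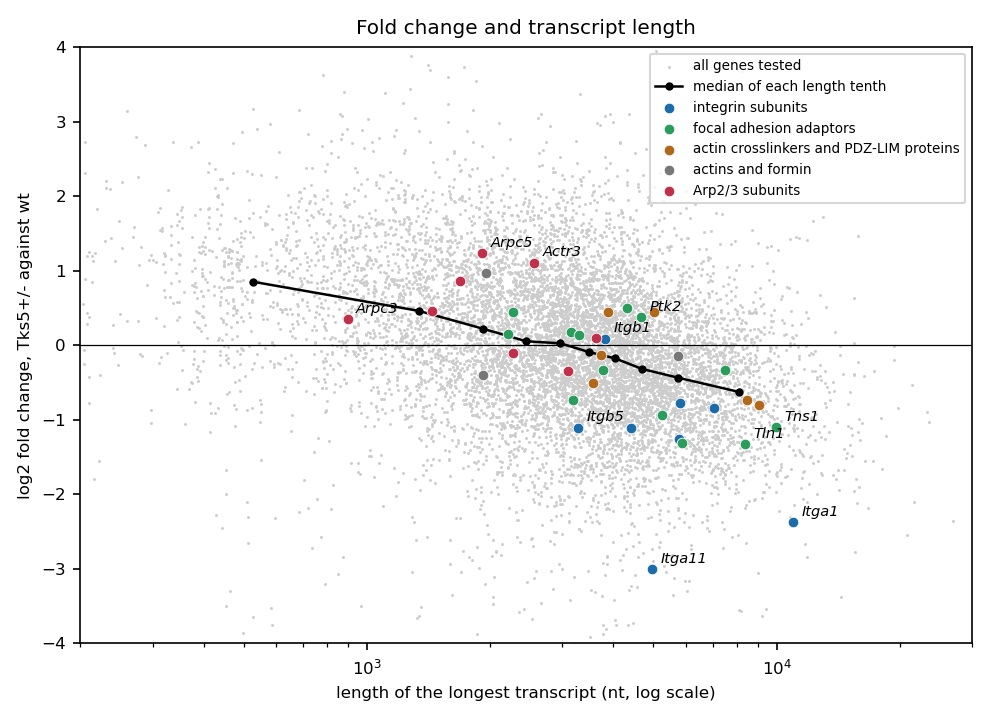
Log2 fold change (y axis) against transcript length in nt (log x axis) for all tested genes in grey and for the 38 genes coloured by role, with the median of each of 10 length bins in black; 221 genes outside the axes are not drawn. The medians run from 0.85 down to -0.63, and Itga11 and Itga1 lie far below them while Arpc5 and Actr3 lie above.

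Set against genes of like length, the members differed. Itga11 lay at percentile 0.774 of the log2 fold changes in its length bin and Itga1 at 2.03, followed by Itgb5 at 12.6, Parva at 12.9, Itgb3 at 14.6, Itga5 at 15.6, Tln1 at 19.1, Zyx at 20.1, Vcl at 24.5, Tns1 at 28.2, Itgav at 39.7 and Flna at 44.1. Of the Arp2/3 complex, Actr3 lay at 87.2, Arpc5 at 85.6 and Arpc1a at 74.0, while the subunits not called lay at 59.0 (Actr2), 49.9 (Arpc2), 43.2 (Arpc4), 33.3 (Arpc1b) and 30.2 (Arpc3). Itgav, Flna and Tns1 thus did not stand far from other long transcripts, while Itga11 and Itga1 did.

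After correction of every library for the dependence on length, 7 of the 38 genes were called lower and 7 higher, against 19.0% and 19.9% of all genes. The members were then called lower about as often as other genes. Itga11 (-2.70), Itga1 (-1.65), Itgb5 (-1.06), Tln1 (-0.74), Zyx (-0.71) and Vcl (-0.60) were still called lower, as were Arpc5 (1.01), Actr3 (1.04) and Arpc1a (0.56) higher. Itgav (-0.34, adjusted p = 0.241), Itgb3 (-0.86, adjusted p = 0.0709), Itga5 (-0.87, adjusted p = 0.0629), Tns1 (-0.42, adjusted p = 0.0988), Flna (-0.15, adjusted p = 0.560) and Parva (-0.92, adjusted p = 0.0797) were not. Gained by the length correction were Actb, lower, and Ptk2 (0.65), Lims1 (0.73), Pdlim5 (0.76) and Actn4 (0.59), higher. When GC content was corrected as well, Tln1 (-0.44, adjusted p = 0.115) and Zyx (-0.43, adjusted p = 0.142) were no longer called. Nor were Ptk2 (0.47, adjusted p = 0.118) and Lims1 (0.53, adjusted p = 0.0747), while Bcar1 was called higher (0.64, adjusted p = 0.0428). Whether the trend with length lies in the cells or in the libraries was not tested.

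**Figure D4:**
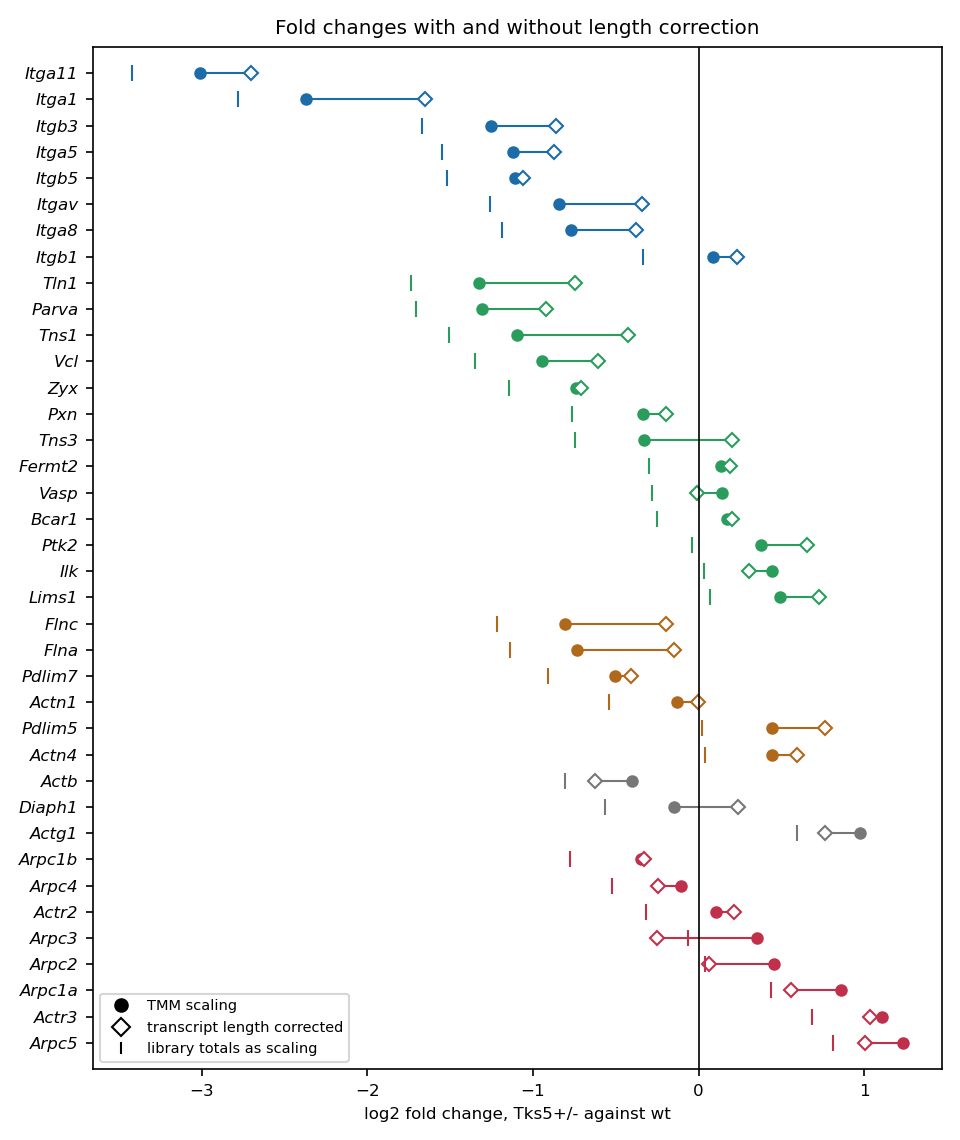
Log2 fold change (x axis) of each tested gene with TMM scaling (filled circles), after correction of every library for transcript length (open diamonds) and with library totals as the scaling (ticks), coloured by role as in the plot of fold changes by role. Itga11 moves from -3.01 to -2.70 and Itga1 from -2.37 to -1.65, while Flna moves from -0.73 to -0.15 and Arpc5 from 1.24 to 1.01.

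Genes near these in the same pathways were taken from lists by role. Of 12 other integrin subunits, 4 were tested, and 2 were called lower and 0 higher, beside 22.1% and 22.8% of all genes. Itga9, an alpha subunit that binds tenascin C, had 81, 89 and 76 counts in wt LFs against 29, 13 and 20 in libraries labelled Tks5+/-. Its log2 fold change was -1.90 (adjusted p = 4.53e-05). Itgax, an integrin of myeloid cells, had 25, 22 and 96 counts against 0, 0 and 1, with most in the library rich in macrophage RNA. Of 42 other adhesion and LIM genes, 37 were tested, and 8 were called lower (21.6%) and 7 higher (18.9%), near the 22.1% and 22.8% of all genes. Tes, a LIM protein that binds zyxin, went the other way from Zyx, with 85, 111 and 134 counts against 383, 409 and 429 (2.03, adjusted p = 1.30e-07). Nexn, an actin-binding protein of adhesions and muscle, had 172, 225 and 248 counts against 51, 55 and 54 (-1.88, adjusted p = 8.35e-07).

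Activators of the Arp2/3 complex and its alternative subunits formed another list. Of its 15 genes, 12 were tested, 1 was called lower (8.33%) and 4 higher (33.3%), beside 22.1% and 22.8% of all genes. Their median was 0.45. The 4 higher were Abi1 (0.96, adjusted p = 0.00105) and Brk1 (0.60), both subunits of the WAVE complex that switches Arp2/3 on, and the alternative subunits Arpc5l (0.68) and Actr3b (1.35). The 1 lower was Nckap1, another WAVE subunit, which had 161, 184 and 312 counts in wt LFs against 59, 49 and 51 in the others (-1.87, adjusted p = 7.67e-07). The WAVE complex thus held subunits called in both directions. Of 19 other formins, filamins, actinins and actins, 12 were tested. Of the 12, 4 were called lower (33.3%) and 0 higher, beside 22.1% and 22.8% of all genes. Their median transcript length was 4502.5 nt, beside 3204 nt for all genes tested, and longer transcripts were called lower more often. The formins Diaph2 (-2.65, adjusted p = 1.60e-05) and Fmnl2 (-1.50, adjusted p = 0.00348) had the smallest adjusted p in this list, with 46, 46 and 45 counts against 10, 6 and 4 for Diaph2. Acta2, the smooth muscle actin that marks myofibroblasts, was not called (-0.11).

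Promoters were searched for the CArG box, the site of serum response factor, which controls many actin and adhesion genes. RefSeq promoters (250 bases before to 50 after the start of the gene, GRCm38.p6) were found for 36 of the 44 genes. A CArG box lay in 4 of them (11.1%), on either strand, and in 1.81% of all 27025 genes with a promoter. The windows around it are shown because they mark where this site lies, with the box in capitals.
Vcl, chr14:20929148-20929205, forward strand: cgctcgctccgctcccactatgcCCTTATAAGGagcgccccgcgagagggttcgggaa
Actg1, chr11:120348551-120348610, reverse strand: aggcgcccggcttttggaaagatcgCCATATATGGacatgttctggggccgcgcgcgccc
Arpc4, chr6:113377863-113377897, forward strand: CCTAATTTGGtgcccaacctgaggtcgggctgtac
Fermt2, chr14:45530235-45530294, reverse strand: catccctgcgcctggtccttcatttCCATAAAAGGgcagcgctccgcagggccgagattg
Of these 4 genes, Vcl was called lower and Actg1, Arpc4 and Fermt2 were not called. The TEAD motif CATTCC lay in 6 of the 36 promoters (16.7%, against 16.6% of all genes) and the AP-1 motif TGANTCA in 3 (8.33%, against 8.97%). A match is a description of the sequence and not evidence of binding.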

How the data were processed

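Quant-Seq reads of TGFβ-treated LFs were trimmed by the authors (Trim Galore), aligned to GRCm38 (HISAT2, then Bowtie2) and counted on annotated transcript ends with metaseqR2, and the raw counts per Ensembl gene were deposited. Whether the counting kept to 1 strand is not given in the sources used here. The authors' table of normalized counts, made with EDASeq and rounded, was used as a score in 1 alternative, and all 6 of its columns hold 1 shared set of sorted values. Of 55364 genes, 55104 were matched to GENCODE annotation of the same build, from which transcript lengths were taken.

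Raw counts were tested with the robust quasi-likelihood F test of edgeR 4.0.16 under R 4.3.3, after filterByExpr and TMM scaling, with Benjamini-Hochberg adjustment over all genes tested. Standard errors come from the fit. Alternatives were DESeq2 1.42.0, limma 3.58.1 on log2 values with a pseudocount of 1, limma-voom, other scalings and filters, a replicate block, loess corrections for length and GC content (span 0.5, prior count 2) and each library left out in turn. Members with overlapping ends were left out, and ratios within a library formed, after the data were seen. On simulated counts of 9895 genes, 200 of them changed, edgeR recovered 42% of 2-fold and 92% of 4-fold changes, with 2.9% of its calls false. The simulation held no trend with length and no difference in cell types, and in the real libraries 4642 genes were called. Its rates therefore cannot be carried over to these libraries. Given in full were the 4 genes of each role with the smallest adjusted p, every gene called higher, and Itgb1, Itgav, Ptk2, Pxn, Vcl, Tln1, Actb and Actg1. The members, lists and tests were chosen with earlier results of these data known. Other genes were Sh3pxd2a, Ddx3y, Xist and Nnt, the most abundant cell type markers, and the 2 genes of each pathway list with the smallest adjusted p. Itga5, Itgb3, Parva, Brk1, Arpc5l, Actr3b, Acta2, Eif2s3y, Kdm5d, Uty and the other single markers were named after their values were seen. Python 3.11.15, pandas 2.3.3, numpy 2.4.6, scipy 1.17.1 and matplotlib 3.10.9 were used.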

Additional observations from a re-analysis of the deposited data

How the results depend on the processing

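Of the 38 tested genes, 12 were called lower and 3 higher. With the correction for transcript length these counts were 7 and 7, with corrections for length and GC content at once 5 and 6, and with library totals as the scaling 19 and 2. Over all genes, 2286 were called lower and 2356 higher in the main fit, of 10346 tested. The same counts were 1967 and 2059 with the length correction (19.0% and 19.9%). They were 1827 and 1989 with length and GC content, and 3944 and 1362 with library totals. Library totals turned the calls over all genes from 50.8% higher to 25.7% higher. Of the integrins, 3 were called lower with at least 10 counts in every library (which left Itga11, Itgb3 and Itga5 untested), with the length correction and with length and GC content. Adaptors called lower were 3 with the length correction, 1 with length and GC content, and 3 when genes with an overlapping end were left out, as Vcl and Zyx were. Adaptors called higher were 2 with the length correction and 1 with length and GC content. Of the Arp2/3 subunits, 2 were called lower with library totals and 2 on the authors' normalized counts. With 1 library left out at a time, 9 to 13 genes were called lower, 3 to 5 higher and 0 to 1 adaptors higher. Over all genes these fits called 1762 to 2118 lower and 2007 to 2477 higher. Without wt replicate 3 the 9 lower lacked Itga5, Itgb3 and Parva. Itga11, Itga1, Itgb5, Vcl, Actr3 and Arpc5 kept their calls in every alternative that tested them. For Vcl these alternatives all rest on the same uncertain reads, since its end overlaps Ap3m1. Correlations of same-numbered libraries (-0.001, -0.0637 and 0.082) lay within those of differently numbered ones (-0.102 to 0.0973). Whether libraries of the same number share an origin cannot be told from these values. The fit with a replicate block gave 12 genes lower and 3 higher, losing Parva and gaining Flnc, and 4668 instead of 4642 calls over all genes. With the replicate block and the length correction together, 7 genes were lower and 7 higher, with 3 integrins and 3 adaptors lower and 2 adaptors higher. The cause of these changes was not tested. Low counts, such as those of Itga8, Pxn and Itga5, limit what can be called at this depth.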
